A study of Mus musculus with 17 samples.

Results

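Prox1-positive excitatory nuclei of dentate granule type numbered 155 of the 284074 nuclei profiled (0.0546%) in the posterior brain of 17 mice. They were chosen by the authors' neuron label, the authors' singlet call and raw UMI counts (unique molecules counted per nucleus). A member had at least 3 UMIs of Slc17a7, at least 3 of Prox1, at most 1 of Gad1 and Gad2 together, at most 2 of Rorb, at most 1 of Foxp2 and at most 1 of Tcf7l2, and lay outside the deposited cluster 13. The assay was droplet-based single-nucleus RNA sequencing of frozen tissue, with nuclei sorted on DAPI. The labels give every animal as female, aged 2.3 months, of the Human TfR knock-in strain and of genotype hTfR KI HOM, that is with a human transferrin receptor (TfR) allele on both chromosomes. Dosing was intravenous, 4 times within 24 days, and the brains were collected 72 hours later.

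There were 4 saline animals, 4 given Malat1 ASO, 6 given anti-TfR:Malat1 and 3 given OTV:Malat1. Malat1 ASO was the free antisense oligonucleotide against the nuclear long noncoding RNA Malat1, labelled at 2 mg per kg for each dose. Both conjugates were labelled at 50 mg per kg. In anti-TfR:Malat1 the oligonucleotide is carried by an antibody to TfR, and in OTV:Malat1 by a transport vehicle that binds TfR. The saline animals carry the same 50 mg per kg dose label as the conjugates, although saline holds no drug. No animal without the knock-in was included, so all groups share that allele. The comparisons address how far each agent lowered Malat1 in these neurons.

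Dentate granule cells are the small, densely packed principal neurons of the hippocampal dentate gyrus. They receive input from the entorhinal cortex and send mossy fibres to CA3 pyramidal cells and hilar neurons. Prox1 is a homeodomain transcription factor needed for their specification and maintenance, and Slc17a7 encodes the vesicular glutamate transporter VGLUT1. On the mm10 (GRCm38) build, GENCODE M21 places Prox1 at chr1:190118035-190170714, Slc17a7 at chr7:45163949-45176142 and Malat1 at chr19:5795690-5802672.

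The libraries held 55393588 to 79866411 UMIs for each animal. Member nuclei had a median of 6382 UMIs (3530 to 14878) and 2566 genes, close to the 6525.5 UMIs of other excitatory neurons. Other excitatory neurons here are 8276 singlet neurons with at least 3 Slc17a7 UMIs, at most 1 Gad1 or Gad2 UMI and no Prox1 UMI. A cell barcode found in another library was carried by 11 members (7.10%) against 7.16% of all nuclei, and 0 barcodes were shared between members of different libraries. All 17 animals are labelled female, and the library labelled Malat1 ASO replicate 1 stood apart in Xist and not in Y-linked genes. In the deposited cluster that holds the members, its Xist level was 0.340 CPM (UMIs of the gene for each 1000000 UMIs of the nuclei summed), against 1330 to 2011 CPM in the other 16 libraries. Xist is transcribed from the inactive X chromosome. The 22 members of that library held 0 Xist UMIs. Its cluster 9 nuclei held 0 UMIs over the Y-linked genes Ddx3y, Uty, Kdm5d and Eif2s3y, and no library held more than 2. Its animal was the only Malat1 ASO one with 5 or more members, so for that group the members' values are given without a test.

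All 155 members fell in the deposited cluster 9, which held 11950 singlet neurons, and made up 1.30% of them (exact 95% interval 1.10 to 1.52%, counting error only). Among 8937 Slc17a7-positive, Gad-low singlet neurons they made up 1.73%. The thresholds decided membership for many nuclei of that cluster. Prox1 stood at exactly 3 UMIs in 69 members and Slc17a7 at exactly 3 in 108. Just outside, 157 nuclei had 2 Prox1 UMIs and met the other criteria, and all 157 were in cluster 9. Those with 2 Prox1 UMIs had 1079 CPM of Dock10, 802 CPM of Glis3 and 1261 CPM of Maml2, beside 1055, 834 and 1211 CPM at 3 Prox1 UMIs. Another 235 nuclei had 2 Slc17a7 UMIs and met the other criteria, and 233 of them were in cluster 9. All cluster 9 singlet neurons, members included, therefore serve below as a wider set, with a median of 3820.5 UMIs for each nucleus.

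Members were spread very unevenly over animals. The saline animals held 36, 9, 5 and 1, the Malat1 ASO animals 22, 0, 2 and 1, the anti-TfR:Malat1 animals 34, 12, 7, 1, 6 and 7, and the OTV:Malat1 animals 2, 5 and 5 (replicates in numerical order). The 3 animals of the deposited batch 1 held 92 of the 155. Members made up 4.16% of cluster 9 singlet neurons in batch 1, against 0.824%, 0.612% and 0.544% in batches 2, 3 and 4. Slc17a7-positive, Gad-low neurons as a whole were also more frequent in batch 1. They made up 17.6, 13.1 and 10.1% of singlet neurons in its saline, Malat1 ASO and anti-TfR:Malat1 animals, against 3.32 to 9.11% elsewhere. As a percent of those neurons, members were 3.27% in batch 1 and 1.22, 0.944 and 0.941% in batches 2, 3 and 4. Cluster 9 itself held 533 to 884 nuclei in every animal. In batch 1 the cluster had a higher median depth, 4813 UMIs against 3443.5 to 3888.5, and more Slc17a7, 255 CPM against 172 to 190. Its Prox1 level was 254 to 278 CPM in all 4 batches. The part of depth and Slc17a7 in the count of members was not tested. The deposited table does not say what its batch number stands for, and no OTV:Malat1 animal was in batch 1.

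**Figure D1:**
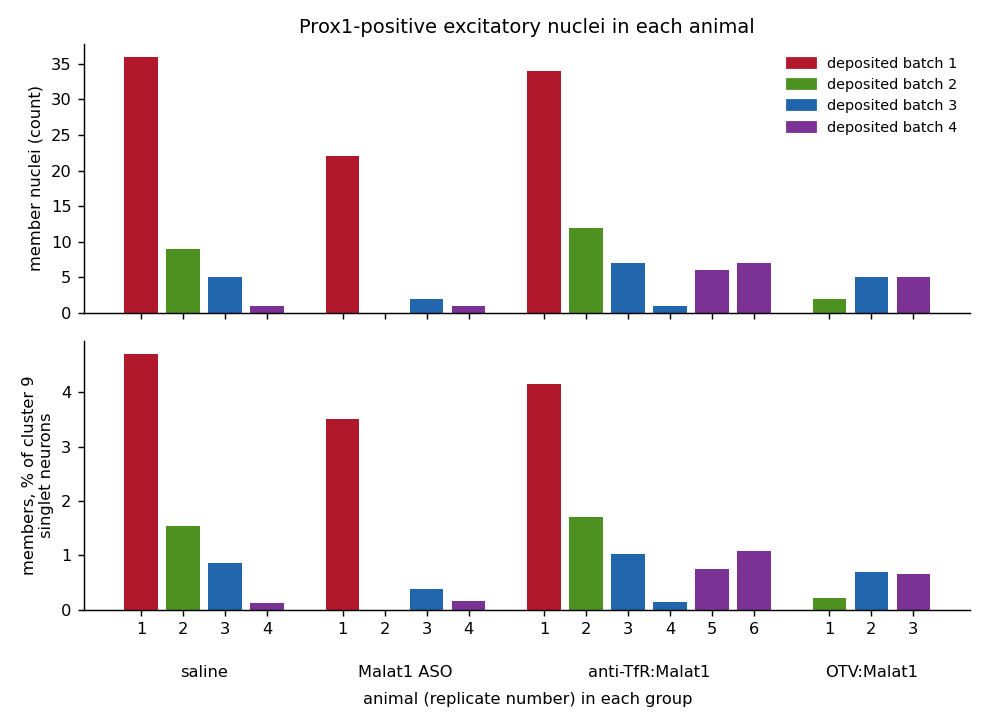
Bars give the number of member nuclei (top) and their percent of cluster 9 singlet neurons (bottom) for each of the 17 animals, by group and replicate, coloured by deposited batch. The 3 animals of batch 1, with 36, 22 and 34 members, stand above the other 14.

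As a percent of Slc17a7-positive, Gad-low neurons, members were 2.96, 1.88, 1.42 and 0.330% in the saline animals and 2.43, 0, 0.570 and 0.357% in the Malat1 ASO animals. The animal with none had 267 such neurons, which allows up to 1.12% at 3 counts. Shares in anti-TfR:Malat1 were 4.94, 1.43, 1.16, 0.236, 1.04 and 1.36%, and shares in OTV:Malat1 were 0.680, 1.29 and 1.11%. The group means were 1.65 ± 1.09% for saline, 0.839 ± 1.09% for Malat1 ASO, 1.69 ± 1.65% for anti-TfR:Malat1 and 1.02 ± 0.311% for OTV:Malat1 (SD, n = 4, 4, 6 and 3). The ranges of the groups overlapped. None of the 6 contrasts passed an exact two-sided permutation test over animals, with adjusted p from 0.929 to 0.981. For OTV:Malat1 against saline and against Malat1 ASO the smallest p an exact test of 3 against 4 animals can give is 0.0571, so those contrasts could not pass. The rule counts UMIs, and the part of depth in this share was not tested.

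Genes known from dentate granule cells were high in the members. These identity genes were read as a description, since Prox1 and Slc17a7 chose the nuclei and the cluster was built on the same counts. All 18 genes of a dentate granule list, Prox1 left out, had more CPM in the members than in other excitatory neurons. Their summed level was 13940 CPM against 1934 CPM, and 13025 to 16500 CPM against 1721 to 2161 CPM over the 11 animals with 5 or more members. Each member had a UMI of 7 to 16 of the 18 genes (median 12), and the median in other excitatory neurons was 4. Zbtb20, a hippocampal zinc finger repressor, was at 4030 CPM against 663 CPM. Rfx3, a ciliary transcription factor, was at 2231 CPM against 312 CPM, and Bcl11b, a zinc finger factor of granule cell maturation, at 292 CPM against 102 CPM. Calb1, which encodes the calcium buffer calbindin of mature granule cells, was counted in 56.8% of members and 15.3% of other excitatory neurons. C1ql3, a secreted C1q-like synaptic protein, was counted in 74.8% and 19.3%. C1ql2, its mossy fibre relative, was counted in 12 members (7.74%) and 0.894% of other excitatory neurons.

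Genes were ranked by the ratio of CPM after 5 CPM was added to both values, leaving out the genes of the membership rule. The leading genes were Maml2, Glis3, Dock10, Adarb2, St18, Dsp, Prox1os, Frmd4b, Tspan18, Synpr, Il1r1 and Sema5a. Maml2, a Notch coactivator, was at 1331 CPM against 57.6 CPM. Glis3, a Krüppel-like zinc finger factor, was at 842 CPM against 35.2 CPM, and Dock10, an exchange factor for small GTPases, at 1037 CPM against 46.5 CPM. These 3 genes were higher in the members of 11 of 11 animals. Nuclei labelled oligodendrocytes held more than the members of Dock10 (3402 CPM), St18 (4067 CPM) and Frmd4b (1144 CPM), and less of the other leading genes. Synpr encodes synaptoporin, a vesicle protein of mossy fibre terminals, and was at 1135 CPM against 92.1 CPM. Dsp, which encodes desmoplakin, was at 71.2 CPM against 0.894 CPM. Prox1os, transcribed beside Prox1, was at 81.6 CPM against 1.81 CPM, and without stated use of strand its reads cannot be told apart from those of overlapping genes. Il1r1, the interleukin 1 receptor, was at 88.3 CPM against 3.33 CPM.

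**Figure D2:**
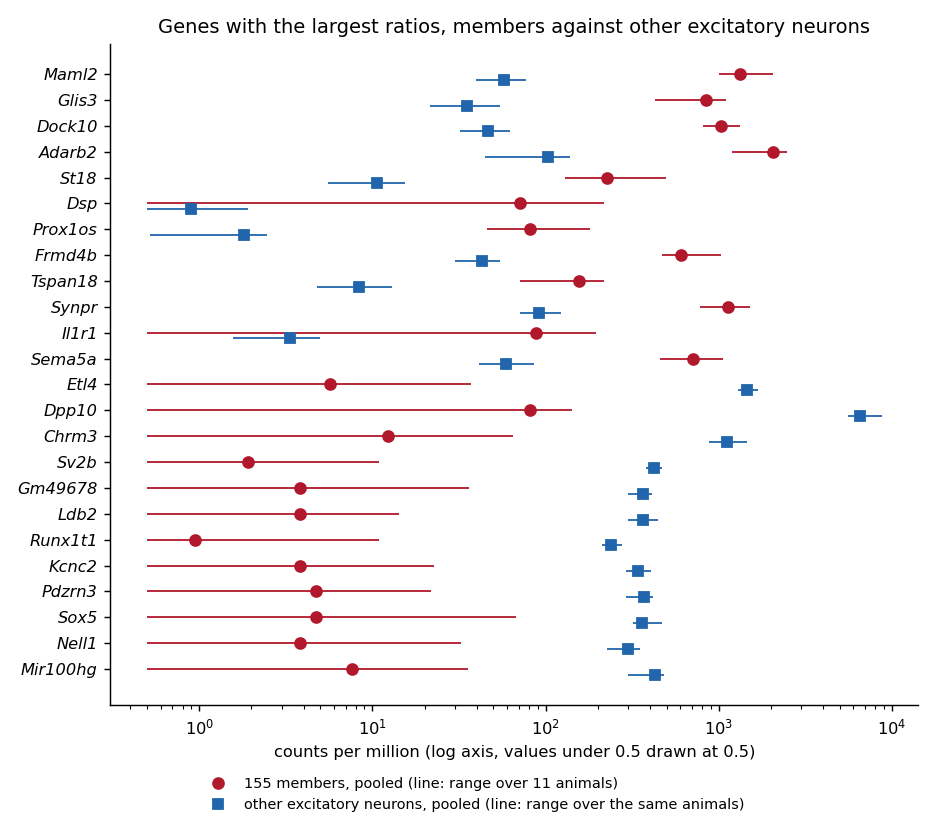
Points give pooled CPM (log axis) of the 12 genes with the highest and the 12 with the lowest ratio of members (red circles) to other excitatory neurons (blue squares), genes of the membership rule left out, with lines for the range over the 11 animals with 5 or more members. For the ranking 5 CPM was added to both values. Ranges separate for 10 of the 12 higher genes, all but Dsp and Il1r1, and for all 12 lower genes.

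The genes lowest against other excitatory neurons by the same ratio, rule genes again left out, were Etl4, Dpp10, Chrm3, Sv2b, Gm49678, Ldb2, Runx1t1, Kcnc2, Pdzrn3, Sox5, Nell1 and Mir100hg. Dpp10, an auxiliary subunit of Kv4 potassium channels, was at 81.6 CPM in members and 6546 CPM in other excitatory neurons. Chrm3, the muscarinic M3 receptor, was at 12.3 against 1122 CPM. Sv2b, a synaptic vesicle glycoprotein, was at 1.90 against 426 CPM.

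Lists of markers of other cells lay on both sides of the level in other excitatory neurons. The CA1 pyramidal list summed to 5.70 CPM against 348 CPM in other excitatory neurons, with Wfs1 and Gm10754 at 0. The mossy cell list summed to 1.90 CPM against 5.51 CPM, with Calb2, Csf2rb2 and Glp1r at 0, and the vascular list to 0.949 CPM against 2.51 CPM, with 5 of 6 genes at 0. The oligodendrocyte precursor list was at 4.75 CPM against 6.68 CPM, with Pdgfra and Cspg4 at 0. Of the other glial genes, Gfap, Aqp4, C1qa and Tmem119 were at 0. The immature granule list was at 61.7 CPM against 134 CPM, with Eomes and Draxin at 0. These mossy cell, vascular, glial and immature granule genes were at no more than 1.88 CPM in other excitatory neurons too. A count of 0 over all members allows up to 2.85 CPM (3 counts), so no difference was detectable for them at this depth. Rorb, Foxp2, Tcf7l2, Gad1 and Gad2, which the membership rule caps, were left out of the cortical, thalamic and interneuron lists. Without them the cortical layer list summed to 272 CPM against 756 CPM, with 1 of 9 genes higher (Rasgrf2), and the thalamic list to 1309 CPM against 1515 CPM, with 1 of 6 higher (Ntng1). The CA2 and CA3 list summed to 678 CPM against 602 CPM, with 5 of 7 genes higher. The astrocyte list was at 173 CPM against 532 CPM, although Slc1a3, a glial glutamate transporter gene, was at 42.7 CPM against 7.79 CPM and higher in 10 of 11 animals. The microglia list was at 68.4 CPM against 60.1 CPM, of which P2ry12, a purinergic receptor gene, gave 49.4 CPM against 37.2 CPM and was higher in 8 of 11 animals. The interneuron list summed to 2115 CPM against 170 CPM, with 6 of 8 genes higher. Adarb2, an RNA editing family member, gave 2074 CPM of it against 104 CPM and was counted in 153 members. The other higher genes had few UMIs over all members: 13 of Sst, 6 of Pvalb, 5 of Vip, 4 of Slc32a1 and 1 of Dlx6os1. Each was higher in only 1 to 5 of 11 animals. Erbb4 was lower, at 13.3 CPM against 46.3 CPM, and Lhx6 was at 0. Gad1 was counted, always at the 1 UMI the rule allows, in 35 members (22.6%) against 2.25% of other excitatory neurons. The oligodendrocyte list was above other excitatory neurons, at 470 CPM against 169 CPM, and St18 gave 227 CPM of it. That list was at 411 to 629 CPM in saline animals, 421 CPM in the Malat1 ASO animal, 260 to 469 CPM in anti-TfR:Malat1 animals and 508 to 1065 CPM in OTV:Malat1 animals. Its part in the Malat1 values below was not tested.

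Receptor genes lay on both sides of the level in other excitatory neurons. Grin2a, an NMDA receptor subunit, was at 4141 CPM against 1873 CPM, and Gria1, an AMPA receptor subunit, at 3229 CPM against 1339 CPM. Grik2, the kainate receptor subunit of mossy fibre synapses, was at 2024 CPM against 887 CPM. All 3 were higher in the members of 11 of 11 animals. Grin2b was at 1991 CPM against 1678 CPM and higher in 10 of 11. Among metabotropic receptors Grm3 was at 72.2 CPM against 331 CPM and higher in 0 of 11 animals, and Grm7 was at 2131 CPM against 2133 CPM. Of the GABA-A receptor subunits, Gabra2 was at 759 CPM against 398 CPM and Gabrb1 at 1414 CPM against 943 CPM, both higher in 11 of 11 animals. Nrxn3, a presynaptic adhesion gene, was at 897 CPM against 5480 CPM. Meg3, an imprinted nuclear long noncoding RNA, was at 1480 CPM against 6959 CPM. Homer1, a postsynaptic scaffold gene with an activity-induced short form, was at 99.7 CPM against 572 CPM. The members of 0 of 11 animals were higher for these 3 genes. Neat1, the paraspeckle RNA encoded next to Malat1, gave only 3 UMIs over all members. Tfrc, the gene name under which the transferrin receptor is counted, gave 12 UMIs in 11 nuclei (7.10%), against 13.9% of other excitatory neurons with a UMI.

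A small number of members stood apart from the rest in expression. Sorcs3, a neuronal sorting receptor gene at chr19:48206025-48805505, was counted at 16, 28, 30, 42 and 52 UMIs in 5 nuclei. The other 150 members had 0 to 2 UMIs, with 140 at 0. Of the 5 nuclei, 3 came from anti-TfR:Malat1 replicate 1, 1 from anti-TfR:Malat1 replicate 3 and 1 from saline replicate 3. The set was picked out after its values were seen, and no test was made on it. The same nuclei held 9196 CPM of Adgrl3, a latrophilin adhesion receptor, against 736 CPM in the other members, and 2353 CPM of Mapk4, an atypical MAP kinase, against 101 CPM. Bdnf, an activity-regulated neurotrophin gene, was at 733 CPM against 50.9 CPM, with a UMI in 4 of the 5. Megf11 was at 1130 CPM against 14.7 CPM and Mir670hg at 1955 CPM against 4.90 CPM.

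Those 5 nuclei held 0 UMIs of Pclo, the presynaptic scaffold gene piccolo, where 17.7 would be counted at the level of the other members. Chst9, Pakap, Macf1, Slc44a5, Dync1i1 and Cpne4 were also at 0. A count of 0 among their 32731 UMIs allows up to 91.7 CPM, beside 542 CPM of Pclo in the other members. Granule-list genes lay on both sides of their level in the other members. Calb1 was at 0, where 4.65 UMIs would be counted at that level. Dock10 was at 458 against 1055 CPM, Zbtb20 at 2689 against 4073 CPM and C1ql3 at 91.7 against 256 CPM. Maml2 was at 4063 against 1243 CPM and Pdzd2 at 3300 against 384 CPM, while Rfx3 was at 2322 against 2228 CPM and Glis3 at 733 against 846 CPM. Of the 18 granule genes, 10 or 11 had a UMI in each. The rapid-response genes Fos, Arc and Npas4 each gave 1 UMI in the 5 nuclei. At the level of the other members 0.0641, 0.0962 and 0.0962 UMIs would be counted. A count of 1 is too low to read a difference from. In all of cluster 9, 38 of 11950 nuclei (0.318%) had 10 or more Sorcs3 UMIs. They numbered 1 to 2 in each saline animal, 1 to 4 in each Malat1 ASO animal, 0 to 9 in each anti-TfR:Malat1 animal and 0 to 1 in each OTV:Malat1 animal.

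Malat1 in the granule-type members was lower in both conjugate groups than in saline by mean, with overlapping animals and no comparison past the threshold. Malat1 made up 8.10, 6.27 and 9.57% of member UMIs in saline replicates 1 to 3, and 5.45% in the single member of replicate 4. In Malat1 ASO it was 6.81% in replicate 1, 7.34% in the 2 members of replicate 3 and 4.99% in the single member of replicate 4. In anti-TfR:Malat1 replicates 1 to 6 it was 5.34, 5.80, 8.47, 7.57, 6.07 and 5.97%, where the value of replicate 4 came from a single nucleus. In OTV:Malat1 it was 5.72% in the 2 members of replicate 1, 7.45% in replicate 2 and 4.03% in replicate 3. Of the anti-TfR:Malat1 animals with 5 or more members, all but replicate 3 lay below every saline animal with 5 or more. The OTV:Malat1 animals lay on both sides of the lowest such saline value.

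Over animals with 5 or more members the means were 7.98 ± 1.65% for saline (SD, n = 3), 6.33 ± 1.23% for anti-TfR:Malat1 (n = 5) and 5.74 ± 2.42% for OTV:Malat1 (n = 2), beside 6.81% in the single Malat1 ASO animal. These are 79.3% of the saline mean for anti-TfR:Malat1 and 71.9% for OTV:Malat1. That saline mean lacks replicate 4, the saline animal of batch 4, while the means of both conjugates include batch 4 animals. With 1 or more members per animal, the saline mean was 7.35% (n = 4). Anti-TfR:Malat1 was then at 88.9% of it (n = 6), OTV:Malat1 at 78.0% (n = 3) and Malat1 ASO at 86.8% (n = 3). In edgeR's quasi-likelihood fit, Malat1 was lower than saline by a log2 difference of -0.51 (SE 0.20) in OTV:Malat1. Its edgeR p was 0.0122 unadjusted and 0.915 after Benjamini-Hochberg adjustment over 1340 genes, and its unadjusted DESeq2 p was 0.153. For anti-TfR:Malat1 the log2 difference was -0.37 (SE 0.15), with an edgeR p of 0.0200 unadjusted and 0.999 adjusted (DESeq2 unadjusted p = 0.165). It was -0.20 without saline replicate 3, -0.20 with 1 or more nuclei per animal and -0.094 with 1 or more Slc17a7 UMIs. Between OTV:Malat1 and anti-TfR:Malat1 it was -0.14 (SE 0.18, edgeR adjusted p = 0.890). Exact permutation tests of the same contrasts on log2(CPM + 1) gave two-sided p of 0.4 for OTV:Malat1 against saline, 0.143 for anti-TfR:Malat1 against saline and 0.476 between the conjugates. The smallest p these numbers of animals allow are 0.2, 0.0357 and 0.0952.

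Malat1 levels also differed between batches. In batch 1 the members had 8.10% in saline, 6.81% in Malat1 ASO and 5.34% in anti-TfR:Malat1, and in batch 2 they had 6.27% in saline, 5.80% with anti-TfR:Malat1 and 5.72% with OTV:Malat1. In batch 3 they had 9.57% in saline, 8.47 and 7.57% in anti-TfR:Malat1 and 7.45% with OTV:Malat1. In batch 4 the single saline member had 5.45%, the anti-TfR:Malat1 animals 6.07 and 5.97%, and the OTV:Malat1 animal 4.03%. The OTV:Malat1 animal had the lowest value of its batch in batches 2 and 4. In batch 2 it came from 2 members, and its exact interval of 5.27 to 6.21% (counting error only) held the anti-TfR:Malat1 value. The Malat1 ASO animal of batch 2 had no member, and the single member of that of batch 4 had 4.99%. In batch 3 the 2 members of the Malat1 ASO animal were lower than OTV:Malat1, at 7.34%. With the deposited batch as a block the edgeR log2 difference between OTV:Malat1 and saline was -0.68 (SE 0.18), with an edgeR adjusted p of 0.101. With the same block the difference between OTV:Malat1 and anti-TfR:Malat1 was -0.39 (SE 0.15, edgeR adjusted p = 0.628), and with no filter on low counts it was -0.44. Leaving out 1 of the 2 OTV:Malat1 animals left an arm of 1, whose spread the fit takes from the other groups. Without replicate 2 the difference from saline was then -1.11 (edgeR adjusted p = 0.00505) and that from anti-TfR:Malat1 -0.74. Without replicate 3 these differences were -0.15 and 0.21. Without the library labelled Malat1 ASO replicate 1 the difference between OTV:Malat1 and saline was -0.50, with an edgeR adjusted p of 0.932. It was -0.79 with no filter on low counts, -0.19 for nuclei with 2 or more Prox1 UMIs and -0.33 with 1 or more Slc17a7 UMIs, none past the threshold in edgeR. The high-Sorcs3 nuclei had 6.83 to 14.1% Malat1, and without them saline replicate 3 had 8.26%, anti-TfR:Malat1 replicate 1 4.98% and replicate 3 7.77%.

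**Figure D3:**
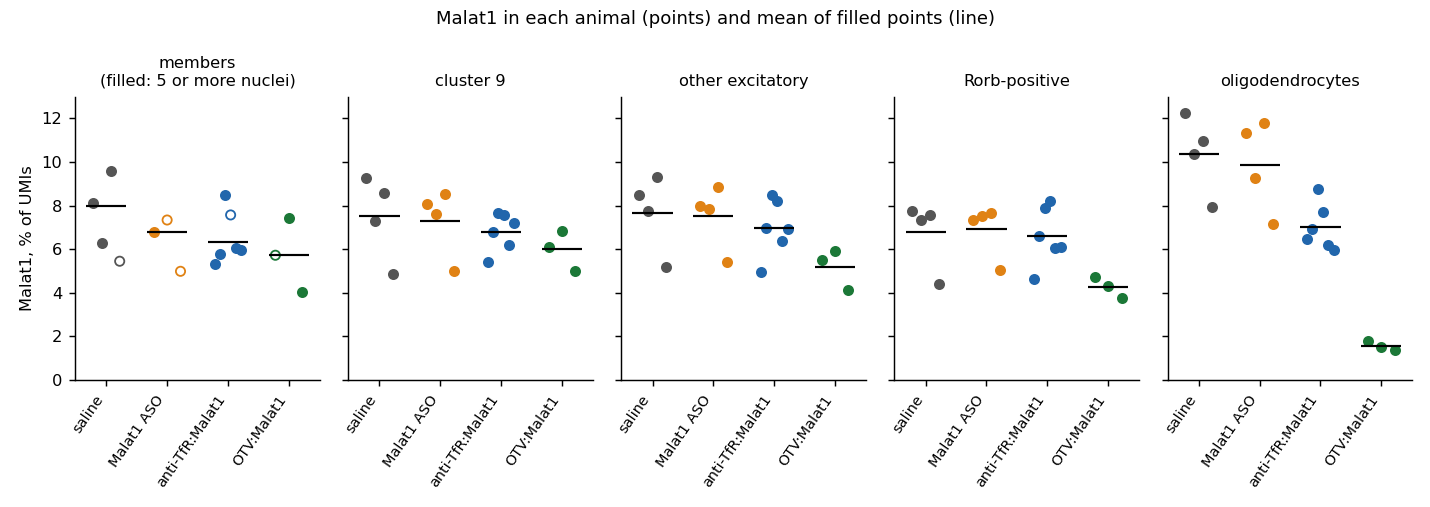
Points give Malat1 as a percent of UMIs in each animal for members (filled where the animal had 5 or more, open where fewer), all cluster 9 singlet neurons, other excitatory neurons, Rorb-positive neurons and oligodendrocytes, with lines at the mean of the filled points. OTV:Malat1 oligodendrocytes lie at 1.38 to 1.78%, while members of the same group lie at 4.03 to 7.45%.

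Single nuclei gave the same picture of overlap. Each member was thinned at random to 1000 UMIs, which left out no member. The median Malat1 count was then 82.5, 69, 90 and 58 in the saline animals, and 76, 77.5 and 51 in the Malat1 ASO animals with members. Medians of anti-TfR:Malat1 animals were 50, 60.5, 71, 71, 61 and 64, and those of OTV:Malat1 animals were 61.5, 75 and 35. The lowest medians were those of OTV:Malat1 replicate 3 and anti-TfR:Malat1 replicate 1. Low nuclei were those under 55 Malat1 UMIs (the 10th percentile of saline members, the 3 animals with 5 or more weighted equally). They made up 2.78, 22.2 and 0% of members in saline replicates 1 to 3 and 27.3% in Malat1 ASO replicate 1. In anti-TfR:Malat1 replicates 1, 2, 3, 5 and 6 they made up 61.8, 33.3, 0, 50 and 0%. In OTV:Malat1 they made up 0% in replicate 2 and 100% in replicate 3. The mean share of low nuclei was 20.7 percentage points higher in anti-TfR:Malat1 and 41.7 points higher in OTV:Malat1 than in saline. Exact permutation p were 0.357 and 0.8 for these contrasts and 0.667 between the conjugates. The smallest p these numbers of animals allow are 0.0357, 0.2 and 0.0952. None of the 3 contrasts could therefore pass after adjustment, and the test cannot decide whether the shares differ. The cut was taken from the saline members, which holds their share low by construction. The OTV:Malat1 mean is that of 0 and 100%. The anti-TfR:Malat1 difference ran from 12.5 to 27.9 points with animals left out in turn and from 2.14 to 38.8 points over the alternatives.

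**Figure D4:**
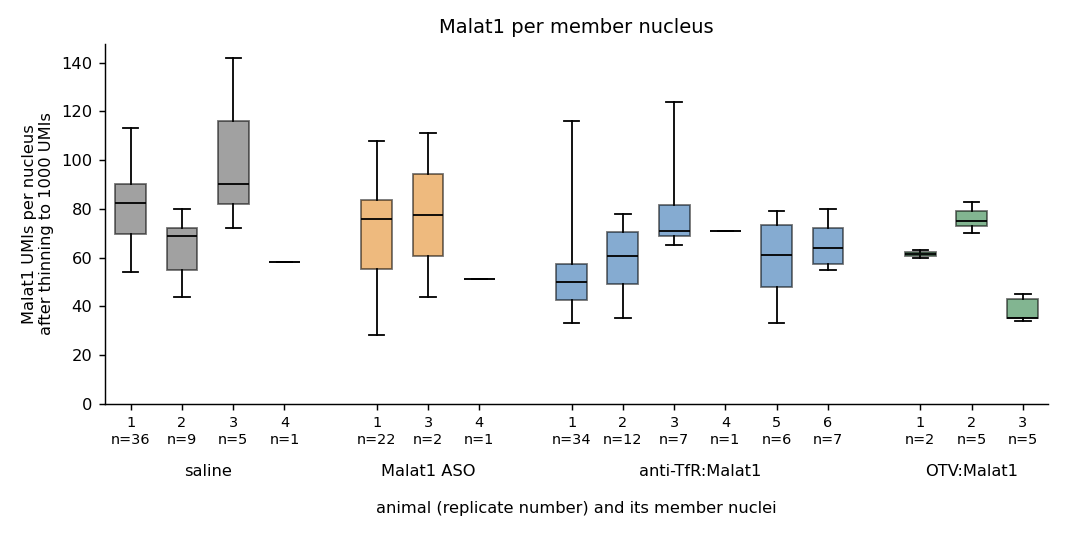
Boxes give the quartiles and whiskers the lowest and highest Malat1 count per member nucleus after thinning to 1000 UMIs, for each animal with a member (n is its number of members). Anti-TfR:Malat1 replicate 1 (median 50) and OTV:Malat1 replicate 3 (median 35) lie lowest, and OTV:Malat1 replicate 2 (median 75) lies among the saline animals.

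The wider set of all cluster 9 singlet neurons gave a value in every animal. Mean Malat1 was 7.51 ± 1.95% of their UMIs over the saline animals (SD, n = 4) and 7.30 ± 1.56% over those given Malat1 ASO (n = 4). It was 6.81 ± 0.868% under anti-TfR:Malat1 (n = 6) and 6.00 ± 0.926% under OTV:Malat1 (n = 3), with overlapping ranges. Malat1 ASO and saline, and anti-TfR:Malat1 and saline, changed their order when single animals were left out. The log2 difference between OTV:Malat1 and saline was -0.38 (SE 0.17), with an unadjusted edgeR p of 0.0369. Adjusted over the 12375 other genes and Malat1 the edgeR p was 1.00, and the exact permutation p was 0.343. The edgeR difference was -0.25 without saline replicate 1, the only saline animal of batch 1, and -0.25 without all 3 animals of that batch. Members and the other nuclei of cluster 9 had similar Malat1 within an animal. The log2 difference of members less the rest of the cluster was -0.10 ± 0.18 (SD, n = 11 animals), below 0 in 8 of 11, with an exact sign-flip p of 0.0928.

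Relative to other cells of the same animal, Malat1 in cluster 9 was higher in all 3 OTV:Malat1 animals than in every animal of the other groups, and no test passed after adjustment. Mean Malat1 under OTV:Malat1 was nonetheless below saline in each of these cells. It was 79.9% of the saline mean in cluster 9, 67.4% in other excitatory neurons and 62.9% in Rorb-positive neurons. In cluster 9, Malat1 was above that of other excitatory neurons by 0.22 ± 0.06 (log2, SD, n = 3) under OTV:Malat1. The same difference was -0.04 ± 0.12 in saline (n = 4), -0.05 ± 0.05 in Malat1 ASO (n = 4) and -0.03 ± 0.10 in anti-TfR:Malat1 (n = 6). Of the 8276 other excitatory neurons, 218 (2.63%) were themselves in cluster 9, so the 2 sets shared nuclei. With those left out, a choice made after seeing the data, the OTV:Malat1 difference was 0.22 ± 0.06 and the saline one -0.04 ± 0.12. The exact permutation p was 0.0571 against saline, 0.0238 against anti-TfR:Malat1 and 0.0571 against Malat1 ASO, each the smallest these numbers allow, and the adjusted p was 0.0935, 0.0857 and 0.0935 over 18 tests. Against Rorb-positive excitatory neurons (at least 3 Rorb UMIs, n = 1186, of which 0 were in cluster 9), the OTV:Malat1 difference was 0.49 ± 0.16, against 0.14 ± 0.11 in saline and 0.06 ± 0.14 in anti-TfR:Malat1. All 3 OTV:Malat1 animals again lay above the others, with exact permutation p of 0.0571 and 0.0238 and adjusted p of 0.0935 and 0.0857.

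For the members alone fewer animals gave a value. Members less other excitatory neurons gave 0.15 ± 0.27 (log2, SD, n = 2) in OTV:Malat1, -0.11 ± 0.18 in saline (n = 3) and -0.09 ± 0.15 in anti-TfR:Malat1 (n = 5). Of the OTV:Malat1 animals, 1 lay above every saline animal and the other within their range. The differences between groups were 0.26 against saline and 0.24 against anti-TfR:Malat1, with exact permutation p of 0.4 and 0.286. The smallest p these numbers of animals allow are 0.2 and 0.0952, so neither contrast could pass. These differences rest on single animals: they were 0.071 and 0.049 without OTV:Malat1 replicate 2, and 0.45 and 0.43 without replicate 3. Without saline replicate 2 the difference from saline was 0.16.

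Against oligodendrocytes the gap was wide. Malat1 made up 10.4 ± 1.81% of oligodendrocyte UMIs in saline and 1.56 ± 0.204% in OTV:Malat1, which is 15.0% of the saline mean. Members less oligodendrocytes came to -0.51 ± 0.28 in saline (log2, SD, n = 3), -0.13 ± 0.13 in anti-TfR:Malat1 (n = 5) and 1.92 ± 0.53 in OTV:Malat1 (n = 2). The difference between OTV:Malat1 and saline was 2.43, with both OTV:Malat1 animals above all saline animals, and the exact permutation p of 0.2 is the smallest this design allows. In cluster 9 the same difference was 2.43 as well (exact permutation p = 0.0571, adjusted 0.0935). For anti-TfR:Malat1 against saline it was 0.45 in cluster 9, with 6 of 6 animals above every saline animal (exact permutation p = 0.00952, the smallest possible, adjusted 0.0857).

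**Figure D5:**
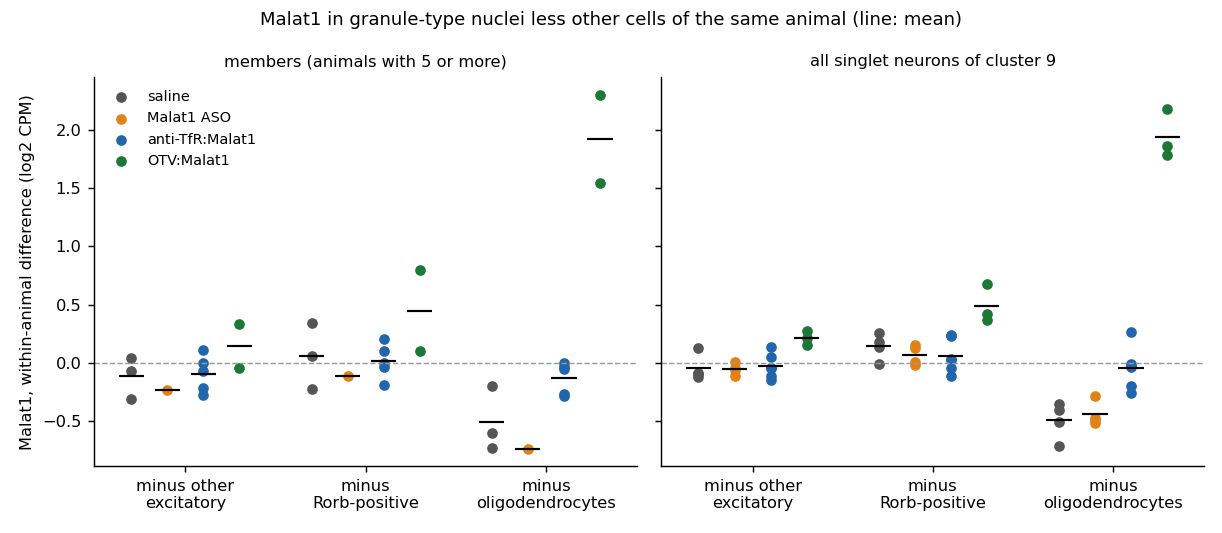
Points give, for each animal, the log2 difference in Malat1 CPM between granule-type nuclei and other cells of that animal, for members in the 11 animals with 5 or more (left) and for all cluster 9 singlet neurons in 17 animals (right), with lines at the group means. In the right panel all 3 OTV:Malat1 points lie above every point of the other groups in each of the 3 comparisons.

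No other gene was past the threshold in the members in the main fit, while some alternatives, the batch block included, called a few, as given below. The fit covered 1339 genes beside Malat1 in 11 animals, and edgeR called 0 at an adjusted p under 0.05 (0% of genes tested) for anti-TfR:Malat1 against saline, for OTV:Malat1 against saline and for OTV:Malat1 against anti-TfR:Malat1. At an unadjusted p under 0.05 there were 23, 56 and 65 genes by edgeR and 7, 24 and 40 by DESeq2. In cluster 9, 0 of 12375 other genes were called in all 6 contrasts (0%), with 222 to 556 genes at an unadjusted p under 0.05 by edgeR. Sorcs3, counted almost only in the 5 nuclei described above, was called between anti-TfR:Malat1 and saline without saline replicate 3.

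The granule identity genes tested showed no change past the threshold. Of the 18 dentate granule genes other than Prox1, 12 passed the filter on low counts, and 0 were called. Their median log2 difference was 0.011 for anti-TfR:Malat1 against saline and 0.010 for OTV:Malat1 against saline, beside -0.00 and -0.01 over all genes tested. Dock10 was at 1116 ± 142 CPM in saline (SD, n = 3), 1071 ± 188 CPM in anti-TfR:Malat1 (n = 5) and 1061 ± 346 CPM in OTV:Malat1 (n = 2). Glis3 was at 768 ± 75.5, 749 ± 276 and 1040 ± 85.5 CPM in the same groups, and Synpr at 1059 ± 180, 1100 ± 254 and 1329 ± 274 CPM. Both OTV:Malat1 animals lay above all 3 saline animals for Glis3, by a log2 difference of 0.43 (SE 0.31, edgeR adjusted p = 0.915). Separation of 2 animals from 3 carries little weight, since the smallest p an exact two-sided permutation test of these numbers can give is 0.2. For Dock10 and Synpr the OTV:Malat1 and saline animals overlapped.

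The functional lists gave a count of 0 called as well. Of 12 ionotropic glutamate receptor genes tested, 0 were called in the 3 contrasts, with median log2 differences of 0.06, 0.02 and -0.20. Gria1 was at 3101 ± 151 CPM in saline, 3373 ± 450 CPM under anti-TfR:Malat1 and 3220 ± 1191 CPM under OTV:Malat1, and Grin2a at 4373 ± 515, 4587 ± 538 and 3752 ± 489 CPM. Of 8 GABA-A receptor genes, 3 metabotropic glutamate receptor genes, 6 mossy fibre synapse genes, 7 other nuclear long noncoding RNAs and 8 speckle and splicing genes, 0 were called. Of 10 TfR and iron genes, 1 passed the filter and was not called. The immediate early, interferon, p53, RNase H and Malat1 neighbour lists had 0 genes past the filter in members, so a change in them was not detectable at this depth. In cluster 9, where 4 to 19 genes of each of the 14 lists were tested, 0 were called.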

How the data were processed

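The authors deposited integer UMI counts for 26131 genes in 284074 nuclei, with a table of cell labels, clusters, doublet calls and batches for each nucleus. A prediction score and a doublet score came with the authors' deposited labels and were not used. The submitters' processing notes name Cell Ranger 6.0.1, Seurat 4 and mm10, and the doublet caller is not given in the sources used here. Nuclei the authors called doublets were left out of the members, although 47 of them met the other criteria. Members, gene lists and tests were chosen with earlier results of these data known.

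UMIs were summed over the nuclei of each animal, and tests ran over animals, so p-values measure the spread between these animals. A planned minimum of 20 members left 3 animals, so animals with 5 or more were used. That minimum and the use of cluster 9 were chosen after the numbers of nuclei were seen. edgeR 4.0.16 (quasi-likelihood test, TMM, filterByExpr) fitted all groups together, with Benjamini-Hochberg adjustment over all genes tested and a threshold of 0.05, and was tested on simulated data. DESeq2 1.42.0 was an alternative. Permutation tests were exact and two-sided (scipy 1.17.1) on log2(CPM + 1), adjusted within each family of contrasts. The contrasts share animals, saline ones included. Intervals and limits for counts of 0 cover counting error only.

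Genes named were Malat1, Neat1, Tfrc, Prox1 and Slc17a7, members of the lists (those with the highest CPM first), and the 12 genes with the largest ratio each way between members and other excitatory neurons at 50 CPM or more, genes of the membership rule left out. The ratio was taken after 5 CPM was added to both values. The list genes outside the highest few, Xist and the genes of the high-Sorcs3 nuclei were named after their values were seen. Python 3.11.15 and R 4.3.3 were used.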

Additional observations from a re-analysis of the deposited data

Results flagged for a closer look

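Several values stood far from the rest of their group, by the gap to the nearest animal relative to the range of the group. Of 23 groups of values looked at in this way 5 had such an animal. Chance alone flags about 1 in 20, but these groups share animals and are not independent. Their number therefore does not measure an excess over chance. Malat1 in the members was 8.47% of UMIs in anti-TfR:Malat1 replicate 3, above the other animals of that group with 5 or more members. Members were 4.94% of excitatory neurons in anti-TfR:Malat1 replicate 1. Malat1 in cluster 9 less that in other excitatory neurons was 0.13 (log2) in saline replicate 1, above the other saline animals. Xist in cluster 9 was 0.340 CPM in the library labelled Malat1 ASO replicate 1 and 1330 CPM, the lowest of its group, in anti-TfR:Malat1 replicate 1. The replicate 1 animals named here are the 3 animals of the deposited batch 1, and anti-TfR:Malat1 replicate 3 is in batch 3. The part of batch in these flags was not tested.

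The treatment contrasts in Malat1 differed between cell types measured in the same animals, at an unadjusted exact permutation p under 0.05 and not after adjustment over 18 tests. Between OTV:Malat1 and anti-TfR:Malat1, the contrast in cluster 9 less that in other excitatory neurons was 0.24 (log2). Less that in Rorb-positive neurons it was 0.43, and less that in oligodendrocytes 1.98. Between anti-TfR:Malat1 and saline, cluster 9 less oligodendrocytes gave 0.45, and between anti-TfR:Malat1 and Malat1 ASO it gave 0.40. In each of these 5 comparisons every animal of the first group lay above every animal of the second.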

How the results depend on the processing

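Of 1580 values recomputed under alternatives, 1516 kept their direction and their side of the threshold. Of the rest, 52 changed direction, 10 counts moved and 2 values passed the threshold. The 1516 include values that could not change, so their number does not measure stability. All 155 members were in cluster 9, so keeping only members of that cluster repeated the main fit. Leaving out an animal outside a contrast left its exact Malat1 difference unchanged. Exact tests whose smallest p was above 0.05, such as 0.0571 or 0.2, could not pass the threshold. For nuclei with 2 or more Prox1 UMIs, the difference in Malat1 between OTV:Malat1 and anti-TfR:Malat1 was 0.029 (exact) and 0.067 (edgeR). In percentage points, the members' share in anti-TfR:Malat1 less saline was -0.25 at 5 or more Prox1 UMIs, -0.58 at 2 or more and -0.33 as a share of cluster 9. OTV:Malat1 less anti-TfR:Malat1 was 0.149 at 5 or more Prox1 UMIs, and OTV:Malat1 less Malat1 ASO was -0.323 at 2 or more and -0.490 as a share of cluster 9. Members less Rorb-positive neurons, anti-TfR:Malat1 against saline, gave 0.35 at 5 or more Prox1 UMIs, and less other excitatory neurons -0.047 with doublets kept and -0.029 with 1 or more nuclei. Cluster 9 less Rorb-positive neurons, anti-TfR:Malat1 against Malat1 ASO, was 0.00251 within batches. The share of low nuclei between the conjugates was -11.0 points at the 25th percentile. At 5 or more Prox1 UMIs, in 3 animals with 1 residual degree of freedom, edgeR gave Malat1 -0.36 between anti-TfR:Malat1 and saline. An arm of that fit held 1 animal, so its p-values and calls carry no weight. The 2 values that passed the threshold came from fits with 1 animal in an arm. Genes called between anti-TfR:Malat1 and saline numbered 1 with the batch block and 1 with doublets kept. Between OTV:Malat1 and saline there was 1 with doublets kept, and between the conjugates 1 with no filter and 2 with the batch block. In cluster 9 with no filter, 4 genes were called between the conjugates, 1 between OTV:Malat1 and Malat1 ASO and 1 between anti-TfR:Malat1 and Malat1 ASO. Without batch 1, edgeR Malat1 in cluster 9 was 0.062 for Malat1 ASO against saline, 0.063 for anti-TfR:Malat1 against saline, 0.00102 between these agents and -0.25 for OTV:Malat1 against saline. The cause of these shifts was not tested.

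With the replicate number as a block (replicate block), edgeR Malat1 in members was -0.56 for OTV:Malat1 and -0.35 for anti-TfR:Malat1 against saline and -0.21 between the conjugates, with no gene called. Cluster 9 less other excitatory neurons, anti-TfR:Malat1 against saline, was -0.000306. Over 3276 genes, same-numbered animals of the same batch correlated at -0.126 to 0.504 (10 pairs, 8 above 0) and those of different batches at -0.411 to 0.239 (11 pairs, 3 above 0). The numbers were not taken to pair the animals, since not every correlation passed 0.1.

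With each animal left out in turn, these values ranged across 0 (log2 unless given). In cluster 9, Malat1 ASO against saline ran from -0.22 to 0.14 in the exact test and from -0.19 to 0.11 in edgeR. Anti-TfR:Malat1 against saline ran from -0.30 to 0.0072 and from -0.28 to 0.0089, and against Malat1 ASO from -0.25 to 0.0020 and from -0.23 to 0.0057. Cluster 9 less oligodendrocytes ran from -0.020 to 0.098 for Malat1 ASO against saline. Less other excitatory neurons it ran from -0.034 to 0.050 for that contrast, from -0.0083 to 0.048 for anti-TfR:Malat1 against Malat1 ASO and from -0.017 to 0.074 against saline. Less Rorb-positive neurons it ran from -0.043 to 0.028 for anti-TfR:Malat1 against Malat1 ASO. In members, anti-TfR:Malat1 against saline ran from -0.077 to 0.098 less other excitatory neurons and from -0.18 to 0.10 less Rorb-positive neurons. Malat1 between the conjugates ran from -0.74 to 0.21 in edgeR and from -0.63 to 0.25 in the exact test. OTV:Malat1 against saline kept its direction, from -1.11 to -0.15 in edgeR, as did anti-TfR:Malat1 against saline, from -0.51 to -0.20. In cluster 9, OTV:Malat1 against saline ran from -0.54 to -0.25 in edgeR and from -0.49 to -0.17 in the exact test. Members less other excitatory neurons ran from 0.071 to 0.45 for OTV:Malat1 against saline and from 0.049 to 0.43 between the conjugates, and less Rorb-positive neurons from 0.045 to 0.74 and from 0.086 to 0.78. An arm left with 1 animal was assumed to vary like the other groups. Genes called between anti-TfR:Malat1 and saline numbered 0 to 1. The members' share ran from -0.094 to 0.716 points for OTV:Malat1 against Malat1 ASO and from -0.60 to 0.48 points for anti-TfR:Malat1 against saline. The share of low nuclei ran from -29.0 to 71.0 points between the conjugates and from -8.33 to 91.7 points for OTV:Malat1 against saline. The number of nuclei limits what the members can show: 155 nuclei left 1340 of 26131 genes tested, with 2 OTV:Malat1 animals.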
